A study of Mus musculus with 2 samples.

Results

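The nuclear genes of respiratory complex I were followed as every gene whose symbol begins with Nduf, which gave 47 genes with reads among 15048 annotated genes with reads in either library. All 47 had at least 3 reads in each library. GENCODE M21, the annotation used, lists 51 genes with this prefix, and the other 4 are processed pseudogenes without a read. The RNA was total RNA from the heart of F1 hybrid mice (strain B6CASTF1/J, female) at 14 days of age, untreated as far as the labels say. The study has 1 group with 2 long-read libraries, numbered as biological replicates 1 and 2, so no condition was compared. The labels do not clearly name separate animals and 1 description speaks of several females, so a library may hold pooled animals, and their spread may be technical only.

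Complex I takes electrons from NADH to ubiquinone and pumps protons across the inner mitochondrial membrane. Its matrix arm holds the flavin and the iron-sulfur clusters, and its membrane arm holds the proton channels. Core subunits, which have bacterial relatives, carry out the chemistry, accessory subunits surround them, and assembly factors help to build the enzyme but leave it before it is finished. Heart muscle, which contracts without pause, is rich in this enzyme. Prefix and complex do not coincide: Ndufa4 is a subunit of cytochrome c oxidase, and the membrane arm core subunits are encoded by mitochondrial DNA.

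Replicate 1 held 896941 reads and replicate 2 held 972159, of which 22664 and 27355 lay on the Nduf genes. Levels are CPM, the gene's reads per 1000000 reads of the library. A read was taken to stand for 1 transcript molecule, so levels were not divided by length. A read corresponded to 1.17 CPM in replicate 1 and 1.08 CPM in replicate 2. The limit that a count of 0 allows, 3 reads, was 3.50 CPM and 3.24 CPM, respectively. The heart muscle markers Myh6, Tnnc1, Actc1, Pln, Tnni3 and Nppa were detected in both libraries, with means from 341 CPM for Tnni3 to 31034.5 for Myh6. Intervals are exact Clopper-Pearson intervals at 95% unless another kind is named. All intervals and p-values cover counting error only.

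Together the Nduf genes made up 26412.7 CPM in replicate 1 and 29523.2 in replicate 2, that is 2.64% and 2.95% of the reads. The 37 genes for structural subunits took 24803 ± 1707 CPM of this (SD, n = 2), with a median of 516 CPM per gene. Of these 37 genes, 29 lay within 2-fold of that median. The means ran from 117 CPM for Ndufs5 to 2502 for Ndufv1, a ratio of 21.4. The 8 assembly factors with the prefix had a median of 32.3 CPM, so the median structural gene stood 16.0 times higher. Among the 37 structural genes, levels had a Spearman correlation of 0.38 with the length of the most-read annotated transcript. Over all 47 genes it was 0.04. Whether length bears on the order of the genes was not tested. In the order of all 47 genes by mean level, the libraries of neighbouring genes did not overlap in 11 of 46 pairs, so most neighbours did not differ beyond the spread between the libraries.

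**Figure D1:**
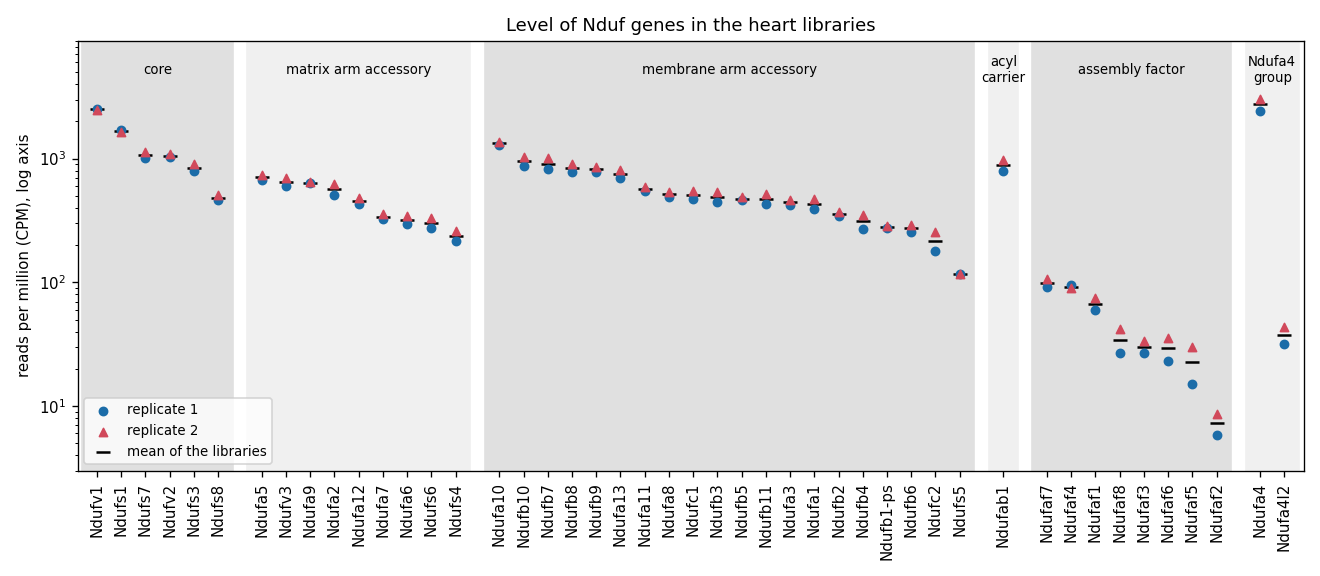
Level of 46 Nduf genes in CPM on a log axis, grouped by role, with circles for replicate 1, triangles for replicate 2 and dashes for their mean. By their means, the structural genes lie between 117 and 2502 CPM, and the 8 assembly factors lie between 7.23 and 99.5 CPM.

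The 7 nuclear core genes summed to 8514 CPM in replicate 1 and 8737 in replicate 2. Ndufv1 (ENSMUSG00000037916.14; mm10 chr19:4007384-4012806, minus strand), whose protein binds NADH and the flavin, had 2536 CPM in replicate 1 and 2468 in replicate 2. It was the highest structural gene and ranked 37 among all genes with reads. Ndufs1, the largest core subunit and a carrier of iron-sulfur clusters, had 1707 and 1631 CPM. Ndufs7, which holds the last cluster before ubiquinone, had 1021 and 1134 CPM. The libraries of Ndufv1 lay above those of Ndufs1, and those of Ndufs1 lay above all those of Ndufs7.

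Other core genes had lower means. Ndufv2, an iron-sulfur subunit next to Ndufv1, had 1026 and 1088 CPM. Its range overlapped that of Ndufs7. The place of Ndufs7 rests on reads of incomplete models, which hold only part of an annotated intron chain. On annotated transcripts alone Ndufs7 had 465 and 519 reads, below Ndufv2 with 849 and 973 and Ndufs3 with 659 and 815. Ndufs8 stayed lower with 367 and 434. Ndufs3 had 788 and 899 CPM, and Ndufs8, which carries iron-sulfur clusters towards ubiquinone, was the lowest core gene with 463 and 505 CPM. The highest core gene thus stood 5.17 times above the lowest.

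The 9 accessory genes of the matrix arm summed to 3950 CPM in replicate 1 and 4495 in replicate 2, with a median of 456 CPM. Ndufa5 was highest with 670 and 744 CPM, followed by Ndufv3, a small subunit beside the flavin site, with 599 and 704 CPM. Ndufa9, which sits near the ubiquinone site, had 634 and 647 CPM, so the ranges of Ndufa5 and Ndufa9 each overlapped that of Ndufv3 but not each other. The lowest were Ndufa6 with 296 and 346 CPM, Ndufs6, a zinc-binding subunit, with 277 and 330, and Ndufs4 with 217 and 258. Between these lay Ndufa2, Ndufa12 and Ndufa7 with means of 565, 456 and 341 CPM. Ndufs4, whose loss in mice gives a widely used model of complex I deficiency, lay below Ndufs6 in both libraries.

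The 20 accessory genes of the membrane arm summed to 10343 and 11801 CPM, with a median of 485 CPM. Ndufa10, a subunit related to nucleoside kinases, was highest with 1289 and 1365 CPM. Ndufb10 had 873 and 1024 CPM and Ndufb7 had 818 and 1003, and these overlapped. At the low end Ndufb6 had 255 and 293 CPM, Ndufc2 had 180 and 255, and Ndufs5 had 117 and 118. The means of the other 14 genes lay between 282 CPM (Ndufb1-ps) and 843 CPM (Ndufb8). Ndufs5 was separated from every other structural gene in both libraries. Ndufab1, the mitochondrial acyl carrier protein, which is bound in both arms and also serves fatty acid synthesis, had 789 and 978 CPM.

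Assembly factors were low but present. Ndufaf7, a mitochondrial methyltransferase, had 92.1 CPM in replicate 1 and 107 in replicate 2. Ndufaf4 had 94.4 and 90.7 CPM and Ndufaf1, a factor for the membrane arm, had 59.4 and 74.5. The lowest were Ndufaf6 with 20 and 33 reads, Ndufaf5, which hydroxylates Ndufs7, with 13 and 28 reads, and Ndufaf2 with 5 and 8 reads (5.83 and 8.63 CPM). Ndufaf2 is a relative of Ndufa12 that holds its place during assembly, and Ndufa12 itself had 427 and 485 CPM. Ndufaf8 and Ndufaf3 lay between by their means of 34.5 and 30.1 CPM, but the ranges of both overlapped that of Ndufaf6. At this depth the forms of Ndufaf2 could not be resolved.

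Ndufa4 (ENSMUSG00000029632.7; mm10 chr6:11900292-11907497, minus strand) was the highest of all 47 genes with 2442 and 3048 CPM, rank 27 among all genes. Of its reads 57.8% and 57.4% lay on an incomplete model, one that holds only part of an annotated intron chain. On annotated transcripts alone it had 1014 and 1286 CPM, below Ndufv1 with 2424 and 2365. Its relative Ndufa4l2, known as a gene induced at low oxygen, had 31.5 and 43.2 CPM. Of 9 assembly factors for complex I without the prefix, 8 were detected. Foxred1 was highest among them at 185 ± 2.65 CPM (SD, n = 2), above Ecsit at 132 ± 6.36 and Acad9 at 97.9 ± 4.99, while Coa1 had no read. Of the 7 mitochondrially encoded core genes, 5 were detected, at most 174 ± 1.51 CPM for mt-Nd5. Among these 5, mt-Nd3 had only 3 reads in each library, the limit that a count of 0 allows. The other genes were mt-Nd6, with 0 reads in replicate 1 and 1 in replicate 2, and mt-Nd4l, with no read. How reads on mitochondrial DNA were filtered is not given in the sources used here, so these levels cannot be set against those of the nuclear genes.

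Most of these genes had 1 leading form. A form is an annotated transcript, or an unannotated intron chain seen at least 5 times in each library, and its share is taken among reads on such forms. Of 42 Nduf genes with at least 20 such reads in each library, 7 (16.7%) had a leading form below 90%, and the median leading share was 99.2%. Among all 4348 genes that could be judged in the same way, 31.0% had a divided leading form and the median was 98.3%. With recurrent incomplete models counted as forms, 11 of 43 Nduf genes (25.6%) were divided, by the addition of Ndufa4, Ndufa5, Ndufb3 and Ndufs7, beside 36.8% of 4455 genes overall. In 6 of the 7 divided genes the leading form is annotated as coding, and in 5 of these (83.3%) the second form holds the same coding sequence, against 33.3% of 1266 divided coding genes overall. The divided genes thus differed mostly in untranslated exons.

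Ndufs1 (ENSMUSG00000025968.16; mm10 chr1:63143596-63176833, minus strand) was divided among both annotated and unannotated forms. Ndufs1-201 took 764 of 1364 reads and 797 of 1411 in the second library, a share of 56.2% ± 0.334 (SD, n = 2). Ndufs1-203, whose first exon overlaps that of Ndufs1-201 but ends at another splice donor, took 292 and 307 reads. A pair of unannotated forms of 20 exons took 201 and 208 reads, and 106 and 95 reads. Both hold an extra noncoding exon of 104 bases, behind a first exon that ends at either of these donors. This exon was present in 22.5% of spanning reads in replicate 1 (95% interval 20.3 to 24.8%) and 21.5% in replicate 2 (19.4 to 23.7%). All forms that led the reads keep 1 coding sequence, which covered 99.9% and 99.7% of the reads on forms.

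The junctions in front of the start codon show how the annotated Ndufs1 forms meet at the same exon. Each line gives the last 15 bases of the exon before and the first 15 bases of the start-codon exon, with the start codon in capitals, on mm10 chromosome 1, minus strand, spanning chr1:63170900-63176600 and chr1:63170900-63176442. The sequences were read from the GENCODE M21 transcripts.
Ndufs1-201: ggctccggaggaaagccatcATGttaagga
Ndufs1-203: cgggagagccggcagccatcATGttaagga
Only 5 noncoding bases of the start-codon exon stand before the start codon, and the bases in front of these 5 differ between the forms. The annotated ends of the last exon also differ, and the ends of the reads were not measured.

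Ndufs8 (ENSMUSG00000059734.7; mm10 chr19:3908863-3912774, minus strand) was divided in the same manner. Ndufs8-205 took 266 of 367 and 325 of 434 reads in replicates 1 and 2, or 73.7% ± 1.70 (SD, n = 2). Ndufs8-201 took 91 and 95 reads and Ndufs8-203 took 9 and 11. The first exon of Ndufs8-205 has 65 bases, against 268 in Ndufs8-201 and 265 in Ndufs8-203, and the start codon opens the second exon in all of them. The following lines show 15 bases of the first exon and 15 of the second, with the start codon in capitals, spanning chr19:3911732-3912724, chr19:3911732-3912481 and chr19:3911732-3912484 on the minus strand of mm10.
Ndufs8-205: ccgcagcacttcaagATGtatcgcctgagc
Ndufs8-201: gtctgagagaaagtgATGtatcgcctgagc
Ndufs8-203: aaggtctgagagaaaATGtatcgcctgagc
Ndufs8-203 ends its first exon 3 bases earlier than Ndufs8-201, and every read on forms kept the coding sequence of 636 bases.

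**Figure D2:**
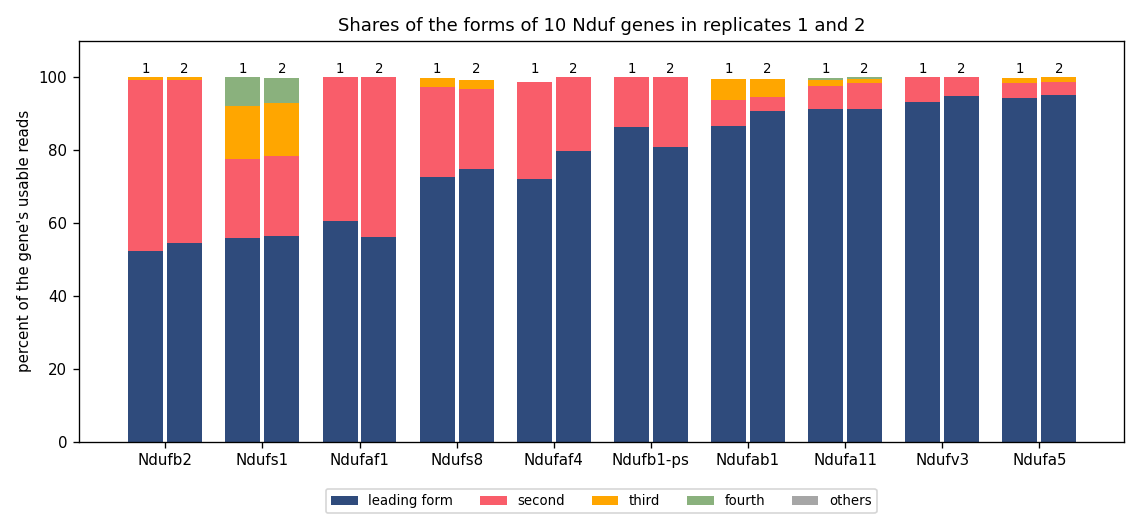
Share of each form among reads on forms, in percent, for the 7 divided genes and for Ndufa11, Ndufv3 and Ndufa5, with 1 bar for each replicate and colours from the leading form upwards. The mean leading share falls from 94.6% in Ndufa5 and 93.9% in Ndufv3 to 53.5% in Ndufb2. In Ndufab1 it was 86.6% in replicate 1 (95% interval 83.8 to 89.2%) and 90.7% in replicate 2 (88.6 to 92.5%).

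Ndufb2, an accessory subunit of the membrane arm (ENSMUSG00000002416.13; mm10 chr6:39592574-39603382, plus strand), was the most evenly divided. Ndufb2-205 had 146 of 279 and 178 of 326 reads in replicates 1 and 2, and Ndufb2-202 had 131 and 145. The forms part at the splice donor of the exon at chr6:39598266-39598361, which lies 24 bases behind the coding sequence, and Ndufb2-202 holds 4 more bases, GTAG, at this place. The annotated last exons differ in size, 3991 bases in Ndufb2-205 and 80 in Ndufb2-202, but models take on annotated ends, so the ends of the reads themselves were not measured. Where splice sites up to 10 bases apart were merged, the leading share rose to 99.2%, so the division rests on these 4 bases.

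The divided forms of the other genes were as follows. Ndufaf1 had 26 of 43 and 32 of 57 reads on Ndufaf1-202 and the rest on Ndufaf1-203, which have different first exons and 1 coding sequence of 984 bases. Ndufab1 had 571 of 659 and 809 of 892 reads on Ndufab1-203, or 86.6% and 90.7%. Its second form, Ndufab1-201, has another, noncoding last exon and took 46 and 35 reads. Ndufaf4 was the exception: Ndufaf4-202, a transcript annotated without coding sequence that keeps the first intron, took 21 of 79 and 17 of 84 reads.

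Ndufb1-ps is annotated as noncoding in M21, while RefSeq lists the symbol as a synonym of the protein-coding Ndufb1, a membrane arm subunit. Its reads stood at 276 and 287 CPM, within the range of the other membrane arm genes. Ndufb1-ps-203 had 200 of 232 and 210 of 260 reads in replicates 1 and 2, and Ndufb1-ps-201 had 32 and 50. They part at an acceptor shift between an exon of 145 and one of 142 bases, and merging sites up to 10 bases apart left a single form.

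Shares of the leading form in the libraries were set against each other by Fisher's exact test, two-sided, with Benjamini-Hochberg adjustment over 2747 genes. Of 35 Nduf genes tested none was called, beside 0.0728% of all genes called, and 2 of the 35 had an unadjusted p under 0.05 (5.71%, against 3.50% of all genes). Ndufab1 was 1 of them, with an exact p of 0.0138 and an adjusted p of 1.

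Internal exons were then followed one by one. Over all Nduf genes, 8 internal exons in 5 genes had a mean inclusion of 5 to 95% among reads that span them, and 3 pairs of these 8 are the same exon with a shifted splice site. Among genes with at least 20 reads outside the genomic class in each library, such exons lay in 5 of 45 Nduf genes (11.1%), beside 17.7% of 5162 genes overall. None of the 8 differed between the libraries by Fisher's exact test, 0 of 8 at an unadjusted p under 0.05, beside 0% of 1568 exons called over all genes, of which 69 had an unadjusted p under 0.05.

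Ndufv3 (ENSMUSG00000024038.17; mm10 chr17:31520115-31531331, plus strand) is known to be made as a short and a long protein. Its long exon of 1092 bases, or 364 codons, at chr17:31527310-31528401 was present in 35 of 509 spanning reads in replicate 1 and 34 of 647 in replicate 2. That is 6.88% (95% interval 4.84 to 9.43%) and 5.26% (3.67 to 7.27%), with an exact p of 0.262. The short Ndufv3-202 therefore took 474 and 613 reads, or 93.9% ± 1.15 (SD, n = 2). The coding sequence has 312 bases in Ndufv3-202 and 1404 in Ndufv3-201, so most transcripts encode the short protein. A read of the long form is also longer, and whether length alters its recovery was not tested.

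The coding junctions behind the second exon of Ndufv3 are shown because they tell the forms apart. Capitals mark the exon that follows, the last exon in Ndufv3-202 (spanning chr17:31521663-31531139) and the long exon in Ndufv3-201 (chr17:31521663-31527339), on the plus strand of mm10.
Ndufv3-202: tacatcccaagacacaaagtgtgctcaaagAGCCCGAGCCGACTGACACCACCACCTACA
Ndufv3-201: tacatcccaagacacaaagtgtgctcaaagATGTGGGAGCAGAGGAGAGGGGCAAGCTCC
Both forms share the 30 bases in lower case.

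**Figure D3:**
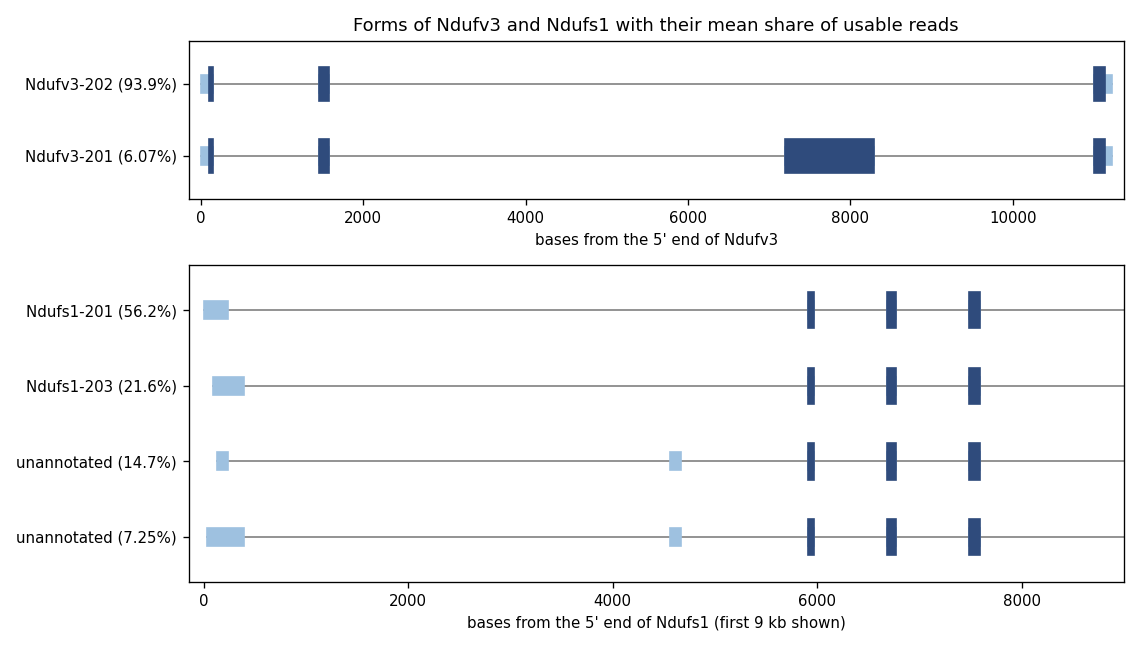
Exons (light) and coding sequence (dark) of the forms of Ndufv3 and of the first 9 kb of Ndufs1, to scale in bases from the 5′ end, with each form's mean share of reads on forms. The 1092-base exon of Ndufv3 is coding and present in the form with 6.07%, while the 104-base exon of Ndufs1 is noncoding and lies in the forms with 14.7% and 7.25%.

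In Ndufa11, an accessory subunit of the membrane arm (ENSMUSG00000002379.7; mm10 chr17:56717767-56722141, plus strand), the third exon has a second acceptor. The exon of 123 bases at chr17:56721319-56721441 was present in 424 of 460 and 492 of 536 reads in replicates 1 and 2. The shorter exon of 83 bases was present in 29 of 460 and 38 of 536 reads, or 6.30% and 7.09%. The 40 bases between the acceptors are not a multiple of 3, and the coding sequence is annotated with 429 bases in Ndufa11-201 and 228 in Ndufa11-204. They are given in capitals, from transcripts of the plus strand spanning chr17:56721108-56721378.
Ndufa11-201: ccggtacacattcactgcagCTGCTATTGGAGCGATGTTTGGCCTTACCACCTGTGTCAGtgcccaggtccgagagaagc
Ndufa11-204: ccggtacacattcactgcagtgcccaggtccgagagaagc
The capitals end in AG, the bases before the inner acceptor. An unannotated form with 7 and 6 reads joined 7 bases further in, 47 bases behind the outer acceptor, and AG stands before that site as well.

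Ndufa5 (ENSMUSG00000023089.12; mm10 chr6:24518666-24528013, minus strand) has a form without 1 coding exon just outside the range used above. Ndufa5-201 took 436 and 523 reads, and Ndufa5-202, which lacks an exon of 117 bases or 39 codons, took 19 and 20. That is 4.10% (95% interval 2.49 to 6.33%) in replicate 1 and 3.64% (2.23 to 5.56%) in replicate 2. The coding sequence has 348 bases with the exon and 231 without it, and the exon is shown in capitals between 15 bases of its neighbours (chr6:24519243-24527287, minus strand).
Ndufa5-201: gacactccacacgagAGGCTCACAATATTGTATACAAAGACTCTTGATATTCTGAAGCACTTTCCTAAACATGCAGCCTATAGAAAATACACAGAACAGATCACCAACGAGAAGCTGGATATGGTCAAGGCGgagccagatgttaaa
Its length is a multiple of 3, so the reading frame is kept in Ndufa5-202.

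Requiring at least 5 reads in each library left 8 unannotated forms in 7 Nduf genes, of which 5 combine annotated splice sites in a new way and 3 use a new site. Among genes with at least 20 reads outside the genomic class in each library, 7 of 45 Nduf genes (15.6%) had such a form, beside 15.3% of 5162 genes overall. The count of forms depends on the minimum, with 24 at 3 reads and 3 at 10 reads. Those of Ndufs1 made up 13.7% and 6.75% of the gene's reads. In Ndufab1 a new site in front of the noncoding last exon took 39 and 43 reads, 5.75% and 4.74%. These 3 forms hold the coding sequence of the leading form and the other 5 do not.

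Among the other 5, an Ndufaf6 form of 8 exons had 6 of 20 and 13 of 33 reads in replicates 1 and 2. It lacks 1 exon of Ndufaf6-201, through an annotated intron at chr4:11062153-11070199, and the intervals of its share among reads on forms were wide (13.3 to 59.0% and 24.6 to 60.9%). The forms of Ndufv1 (13 and 9 reads), Ndufs3 (9 and 6), Ndufa11 (7 and 6) and Ndufb10 (5 and 5) made up at most 1.47% of the gene's reads in either library.

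The Nduf genes had 83.2% ± 0.511 of reads (SD, n = 2) on annotated transcripts, beside 78.8% ± 0.0450 for all annotated genes. For all genes whose leading annotated transcript is under 1000 bases, as in 27 of the 47 Nduf genes, it was 89.2% ± 0.0142. Reads on incomplete models, which hold part of an annotated intron chain, made up 13.4% ± 0.988, beside 8.94% ± 0.0716 for all genes and 5.83% ± 0.219 for genes whose leading transcript is under 1000 bases. New combinations of splice sites made up 2.02% (5.60% for all genes), new splice sites 1.04% (3.44%) and genomic reads, which match no splicing pattern, 0.335% (3.24%). In all genes whose leading transcript is under 1000 bases, these classes made up 1.628%, 2.215% and 1.142%. The incomplete reads lay on few genes. Only 4 of 45 Nduf genes with at least 20 reads in each library had 20% or more of them, which is 8.89%, beside 12.6% of 5382 genes overall.

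Ndufa13, a membrane arm subunit also known as GRIM-19 (ENSMUSG00000036199.9; mm10 chr8:69894180-69902558, minus strand), had no read on its annotated transcript. A model of 4 exons took 583 of 598 and 740 of 753 reads in replicates 1 and 2. It lacks only the noncoding first exon of Ndufa13-201 and holds the whole coding sequence. Ndufa13 was thus incomplete against M21 but not in its coding part. Models of the overlapping gene Yjefn3 on the same strand held 25 and 15 reads, which were not counted for Ndufa13.

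In the other 3 genes the incomplete models do not hold the coding sequence. Ndufb3 had 251 and 346 reads on its last exon alone, 65.5% (95% interval 60.5 to 70.3%) and 68.9% (64.7 to 73.0%). Ndufa4 had 1212 and 1622 reads on its last 2 exons, a model of 281 bases with 57.8% and 57.4%. Ndufs7 had 374 and 495 reads on its last 2 exons, a model of 246 bases with 42.7% and 47.1%. The shares recurred between the libraries, with SDs from 0.294 to 3.08 percentage points. Whether such reads are partial copies or short transcripts was not tested, and the CPM of these genes count them. Next came the single last exon of Ndufa5 with 74 and 95 reads (13.3% on average) and that of Ndufa1 with 23 and 52 (9.43%).

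**Figure D4:**
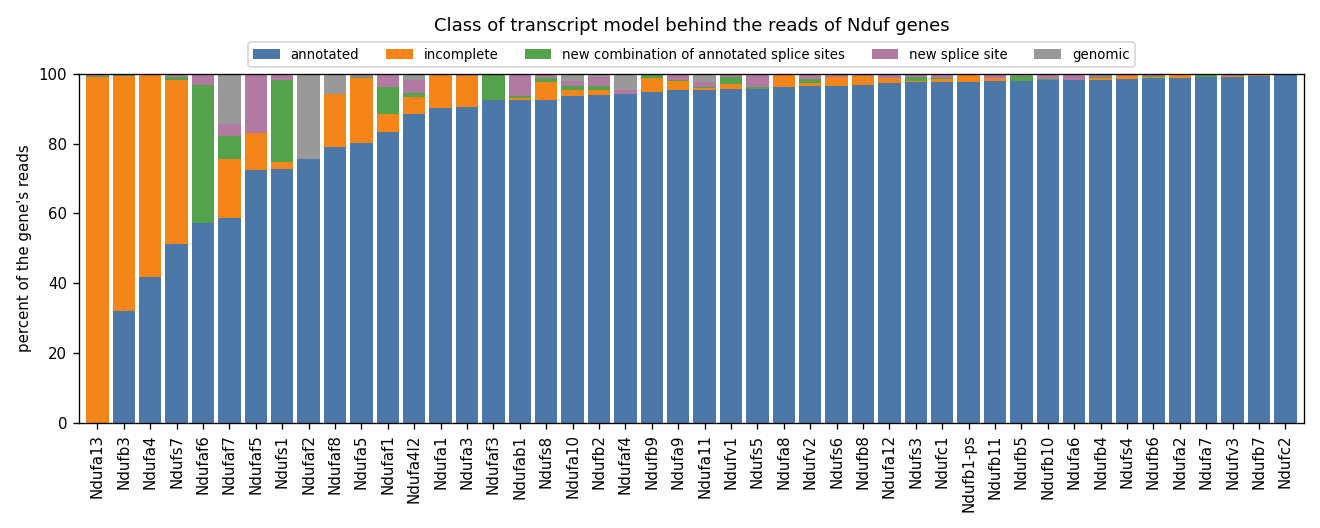
Class of transcript model behind the reads of 46 Nduf genes, as the mean percent of the replicates, ordered by the annotated share. Incomplete reads dominate in Ndufa13, Ndufb3 and Ndufa4, and make up 47.0% in Ndufs7, whereas most genes are nearly all annotated.

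In the assembly factor Ndufaf7 the classes differed between the libraries: 32 reads of replicate 1 and none of replicate 2 were placed in the genomic class, while 2 reads of replicate 1 and 32 of replicate 2 were incomplete. Genomic reads were left out of the CPM. With them counted, the log2 ratio of replicate 2 over replicate 1 for Ndufaf7 was -0.28, against 0.21 without them.

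Differences in reads per gene were then tested with an exact binomial test, two-sided, on the library totals, adjusted by Benjamini-Hochberg over 9433 genes with at least 10 reads. Of the 47 Nduf genes 5 were called, all higher in replicate 2, beside 1.72% of all genes called. Among genes with at least 200 reads in all, 5 of 38 Nduf genes (13.2%) and 6.77% of 1491 genes overall were called. Unadjusted p-values were under 0.05 in 18 of the 47 genes (38.3%), against 9.41% of all genes. The test compares these libraries, not conditions, since there is 1 group.

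The called genes differed modestly. Ndufa4 had 2095 reads in replicate 1 and 2824 in replicate 2, a log2 ratio of 0.32 (exact conditional 95% interval 0.24 to 0.40; adjusted exact p = 8.30e-12). Ndufab1 had a log2 ratio of 0.31 (0.16 to 0.46; adjusted exact p = 0.00284) and Ndufb7 one of 0.29 (0.15 to 0.44; adjusted exact p = 0.00517). Ndufc2, with 154 and 236 reads, had a log2 ratio of 0.50 (0.21 to 0.81; adjusted exact p = 0.0405). Ndufa2 had 434 and 579 reads and a log2 ratio of 0.30 (0.12 to 0.49; adjusted exact p = 0.0498). The calls of Ndufc2 and Ndufa2 ended with TMM-scaled totals (adjusted exact p = 0.0547 and 0.0704), with no minimum of reads (0.0647 and 0.0794) and with annotated and incomplete models alone (0.0603 and 0.0734).

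Most Nduf genes had a higher CPM in replicate 2. This held for 44 of 47 genes, with a median log2 ratio of 0.22, where the median of all genes was 0.00. Ndufs1, Ndufv1 and Ndufaf4 were lower in replicate 2. Among genes whose leading annotated transcript is under 1000 bases, the median log2 ratio was 0.23 for 27 Nduf genes and 0.21 for 862 genes overall. From 1000 to under 2000 bases it was 0.21 for 15 Nduf genes and 0.04 for 2221 genes overall. The 4 Nduf genes of 2000 bases or more had a median of 0.01, beside -0.04 for 6066 genes. Ndufb2 is among these 4 by the annotated 4371 bases of Ndufb2-205, while its second form, Ndufb2-202, has 455. The part of length in the differences of single genes was not tested.

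**Figure D5:**
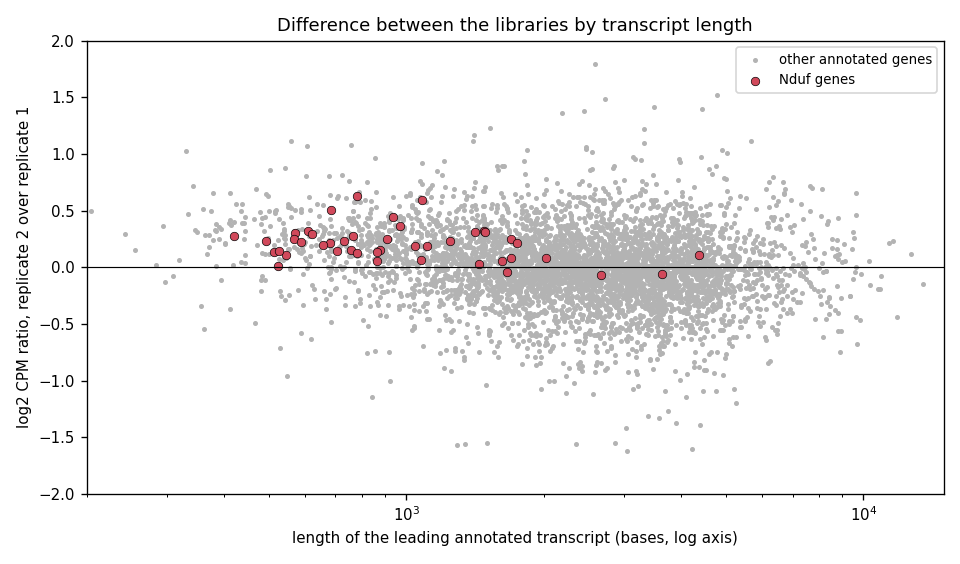
Log2 ratio of CPM, replicate 2 over replicate 1, against the length of the leading annotated transcript in bases on a log axis, for 4833 genes with at least 50 reads, of which 44 are Nduf genes (red) and 10 lie outside the axes. Medians are given for the wider set of genes with at least 10 reads, not for the plotted genes alone. They are 0.21 over all genes under 1000 bases and 0.04 from 1000 to under 2000 bases. For the Nduf genes of these lengths they are 0.23 and 0.21.

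Promoter letters were searched because the genes serve 1 complex. RefSeq promoters of the GRCm38.p6 build, from 250 bases before to 50 after the start, were found for 41 of the 47 genes, 43 promoters in all. The motifs of 4 factors linked to mitochondrial genes were sought on both strands. That of NRF1, nuclear respiratory factor 1, GCGCANGCG, stood in 11 of 43 promoters (25.6%), beside 13.0% of 11957 promoters of genes with reads in both libraries and 6.25% of all 32851. These promoters belong to 10 of the 41 genes, as overlapping promoters of Ndufa5 hold the same site. That of YY1, GCCATNTT, stood in 14 promoters (32.6%), beside 8.27% and 6.05%. AAGGTCA, a site of estrogen-related receptors, stood in 3 (6.98%, beside 3.19% and 4.72%), and CCGGAAGT, bound by GABP, stood in 1 (2.33%, beside 7.84% and 3.89%). A match is a description of letters and not a measured site.

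Examples of the NRF1 letters, in capitals, are given as 29 bases of the gene's strand for a matrix arm subunit (Ndufs6, motif at chr13:73328489-73328497), a pair of membrane arm subunits (Ndufb4, chr16:37654382-37654390, and Ndufa11, chr17:56717702-56717710) and an assembly factor (Ndufaf4, chr4:24897970-24897978).
Ndufs6: gactgctgtgCGCCTGCGCcggcacttgg
Ndufb4: cctcatatccGCGCAGGCGcagatgtgcg
Ndufa11: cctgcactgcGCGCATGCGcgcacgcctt
Ndufaf4: ccagatgtctGCGCATGCGcctgtgcgga
Mean levels of these genes ran from 92.5 CPM for Ndufaf4 to 567 for Ndufa11, so genes with the letters were not alike in level.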

How the data were processed

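The deposited values are whole-number counts of reads on each transcript model of a library, listed with the model's class, exons and length. Per the text deposited with the libraries, the authors took filtered alignments on mm10 and quantified them against GENCODE M21, 1 library at a time, and per the file headers the models were named by TALON. No aligner, filter or version is given in the sources used here. For each gene, reads of every class but genomic were added up and scaled to the library's total without spike-ins and genomic reads (858071 and 926560), which gives CPM. A read was taken as 1 molecule, so partial copies and any selection by length bear on levels and on the incomplete class. Unannotated models were matched between the libraries by intron chain, because their names differ. Tests were run over all genes in Python 3.11.15 with scipy 1.17.1, adjusted by Benjamini-Hochberg at 0.05. They were checked on simulated data that held counting error only, so the check does not cover any other spread between libraries. TMM factors came from edgeR 4.0.16. Log2 ratios are of CPM + 1. The text names the 3 highest and the lowest genes of each role, called genes, divided genes, the unannotated forms with most reads and every partly included exon. Members and lists were chosen with earlier results of these data known. Ndufa5-202, the promoter motifs, Ndufaf7, and the genes named for incomplete reads were chosen after their values were seen. The sequences come from GENCODE M21 and RefSeq. The values of 1 core gene and the sequence of 1 junction are not reported here.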

Additional observations from a re-analysis of the deposited data

Results flagged for a closer look

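Reads in the genomic class lay outside the levels given above. Ndufa10 had 46 of them over both libraries, 26 in replicate 1 and 20 in replicate 2, and Ndufa11 had 23, 8 in replicate 1 and 15 in replicate 2. Both were above 3 reads in each library, which is why they are listed, and no control sample exists. They made up 1.93% and 2.18% of the gene's reads, below the 3.24% over all genes. Ndufaf7 had 32 genomic reads in replicate 1 and none in replicate 2.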

How the results depend on the processing

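All 47 genes stayed detected under every alternative but a minimum of 10 reads, which left 46. The summed level was 31079 CPM with annotated and incomplete models only, where the library totals are also smaller, against 27968, and left out 1 library at a time it ran from 26412.7 to 29523.2 CPM. The number of Nduf genes called between the libraries was 5 in the values reported above. It was 3 with TMM-scaled totals, 3 without a minimum of reads and 3 with annotated and incomplete models only. With at least 50 reads it was 6, and with genomic reads counted it was 5. Over all genes, 161, 143, 154, 168 and 167 were called in these alternatives, in the same order, against 162. Counting incomplete models as forms raised the divided genes from 7 to 11, by Ndufa4, Ndufa5, Ndufb3 and Ndufs7, and merging splice sites up to 10 bases apart left 5. Unannotated forms numbered 24 at a minimum of 3 reads per library and 3 at a minimum of 10, against 8. Of single values, 41 of 145 CPM, 5 of 42 leading shares and 1 of 47 inclusions moved by more than the spread between the libraries, and none of the 18 log2 ratios with an unadjusted p under 0.05 changed sign. Over all 47 genes, Ndufaf7 changed sign with genomic reads counted (0.21 to -0.28) and Ndufs5, near 0 in either case, with annotated and incomplete models only. No paired analysis was possible because there is 1 group. Depth limits the forms of the assembly factors, several of which had under 50 reads in a library.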
